A study of Bos taurus with 9 samples.

Results

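The 10 genes described here encode ligands, receptors and an inhibitor of cytokine systems known from the uterus and from lymphoid tissue. They were taken by symbol from a bovine expression table of 17162 genes, and all 10 were present. The ligands are LIF, IL6, IL11, IL15 and IL7, the receptor chains are LIFR, OSMR, IL6ST and IL15RA, and the inhibitor is IL18BP. All 10 also reached the mean of 0.5 FPKM needed for testing, as did 12578 genes of the table, but IL6 and IL15 did so only through GB, where their means were highest.

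IL6, IL11 and LIF belong to a family that signals through IL6ST (gp130), a membrane chain shared by the receptors of all of them. LIF joins LIFR to IL6ST, oncostatin M can join OSMR to IL6ST, and IL6 and IL11 first bind their own receptors, IL6R and IL11RA. Within the cell these receptors act mainly through JAK kinases and STAT3. LIF is best known in the uterus for its role in implantation, and IL11 for decidualisation, both studied mostly in mice. IL15 and IL7 belong to a different family whose receptors share the chain IL2RG. IL15 is usually carried on the surface of the producing cell by IL15RA and presented to natural killer and T cells that bear IL2RB and IL2RG, while IL7 maintains lymphocytes through IL7R. IL18BP is secreted and binds IL18, which keeps that cytokine from its receptor.

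The cells were wild-type bovine endometrial cells in primary culture (BEND), labelled epithelial, isolated from slaughterhouse uteri of Holstein cows and purified over several passages. CON cells received no hormone and no interferon. GA cells were given E2 (estradiol) at 1 nM and P4 (progesterone) at 100 nM for a 12 h step. GB cells had the same E2 and P4 step and then IFNT (interferon tau, the type I interferon of the ruminant conceptus) at 100 ng/mL for a further 12 h. Each group had 3 libraries, and all groups were kept in medium with serum. The number of cows is not given in the sources used here, nor is the time at which CON and GA cells were collected, so an effect of IFNT and an effect of time in culture cannot be told apart in the comparisons with GB. If the cultures share a cow, the p-values measure only the spread between dishes.

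The FPKM of all genes in a library added up to 1395622 at the lowest and 1442723 at the highest, and 14452 to 14893 genes were above 0 in a library. Pearson's r between libraries, across the tested genes, was 0.989 to 0.991 within groups and 0.955 to 0.959 between GB and either of the other groups. The label was checked against cell markers. All 8 epithelial markers in the table (KRT18, KRT8, KRT19, KRT7, CDH1, CLDN4, ESRP1 and ELF3) were under the testing limit, and their FPKM summed to 0.920 to 2.01 in a library. KRT18 itself was at 0.273 ± 0.127 FPKM (SD, n = 3) in CON. All 10 stromal fibroblast markers were tested, with summed FPKM of 16804 to 17394 in the CON libraries, 16994 to 17390 with the hormones alone and 15245 to 15356 with IFNT added. The defining RNAs of the labelled cell type were thus near 0, and the cells are called BEND here without a cell type. The study checked the label by immunofluorescence for cytokeratin, a protein measure that is not part of this table. Of 12 leukocyte markers 8 were in the table, with summed FPKM of 25.8 to 28.7 in the CON libraries, 26.9 to 30.1 in those of GA and 30.8 to 36.4 for GB. Of these, CD163, a macrophage receptor, went from 2.32 ± 0.342 in CON to 9.23 ± 0.172 FPKM in GB, with a log2FC of 1.79 (limma). Without CD163 the sums were 23.9 to 26.1 in the CON libraries, 25.0 to 28.2 in those of GA and 21.4 to 27.2 for GB. The other tested leukocyte markers, CD14 and CD68, did not pass in any comparison. NKG7 and ITGAM were at 0 in every CON and GB library, and CD79A was at 0 in every GA library. The 6 endothelial markers had sums of 1.71 to 2.48 in the CON libraries, 1.62 to 1.87 in those of GA and 2.30 to 3.49 for GB. Of these CDH5 was the only one tested, and it rose in GB vs. GA by a log2FC of 0.68 (adjusted p = 0.0395, limma). In GB vs. CON it gave 0.34 (adjusted p = 0.253, limma). KDR, under the testing limit, was at 0.0567 ± 0.0404 FPKM in CON, 0.0367 ± 0.0635 in GA and 0.423 ± 0.175 in GB. Its GB libraries were above all others. The libraries of PECAM1, VWF, TEK and TIE1 overlapped in every comparison. The part of these markers in the results on the members was not tested. In bulk RNA, more cells of a type and more RNA per cell cannot be told apart.

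On the per-length scale of FPKM the members of CON cells covered a wide range. IL11 was at 481 ± 73.8 FPKM (SD, n = 3), above 97.2% of the genes in the table. It was followed by IL15RA at 69.1 ± 7.63, IL6ST at 46.3 ± 0.509 and OSMR at 29.5 ± 2.77, and the library ranges of these 4 genes did not overlap. A lower tier held IL7 at 5.70 ± 1.74, LIFR at 4.65 ± 0.758 and LIF at 4.16 ± 0.380 FPKM, whose ranges overlapped. IL18BP was at 1.62 ± 0.516, and IL15 and IL6 were lowest at 0.400 ± 0.693 and 0.263 ± 0.265, with 0 in 2 and 1 of the CON libraries respectively. In GB the order changed in its upper part, because OSMR at 58.4 ± 1.92 FPKM stood above IL6ST at 43.8 ± 1.06. In its lower part the mean of IL18BP (3.43 ± 0.617) stood above that of LIF (2.68 ± 1.80). That of IL6 (1.57 ± 0.191) stood above that of IL15 (1.09 ± 1.16). The GB libraries overlapped within each of these lower pairs.

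**Figure D1:**
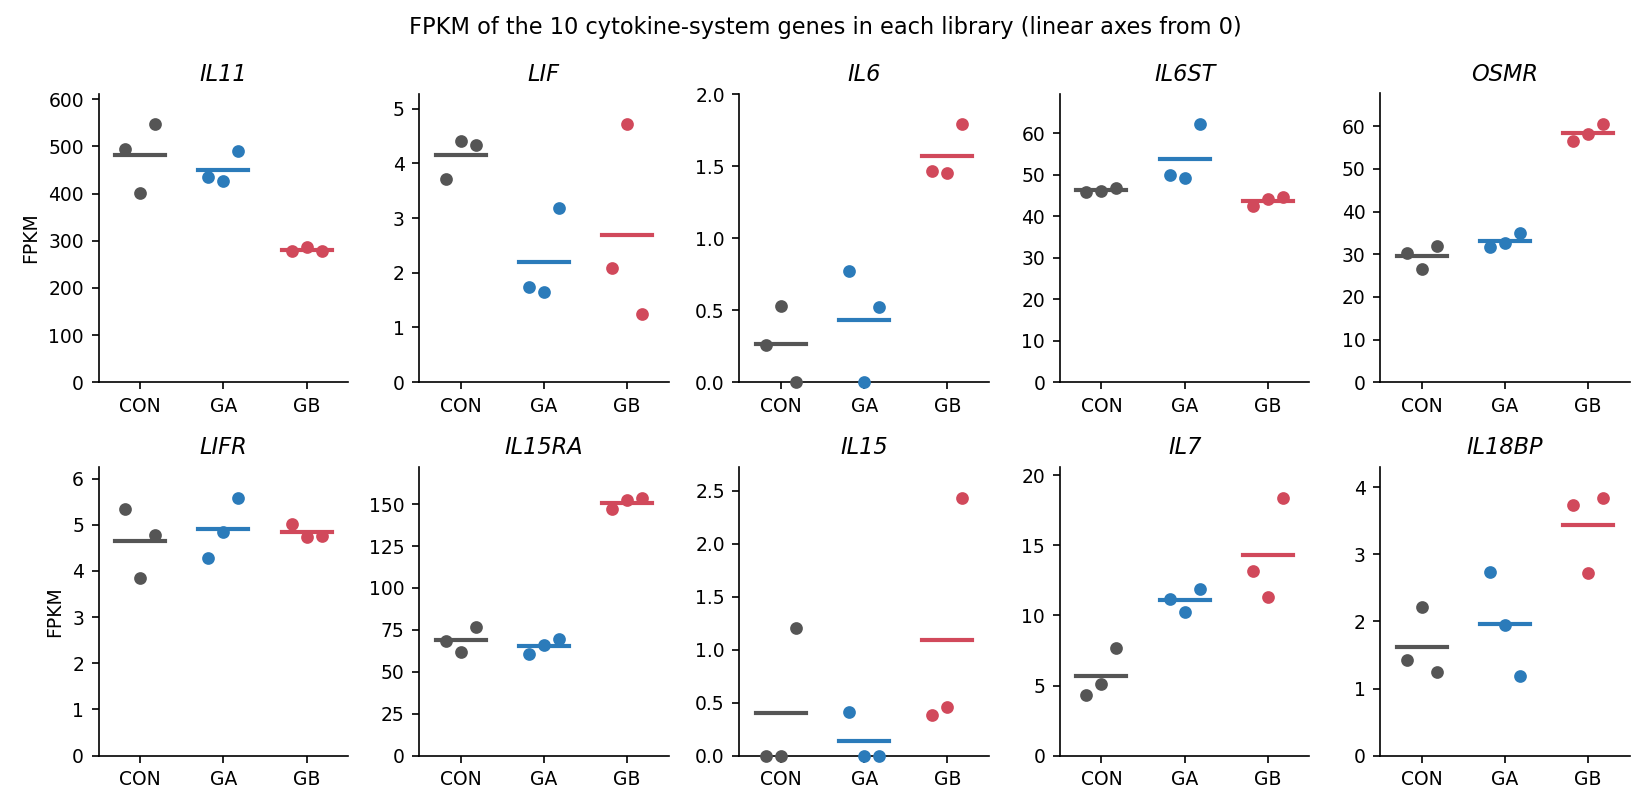
FPKM of each member gene in each library on linear axes that start at 0, with points for the 3 libraries of CON, GA and GB and a bar for the group mean. OSMR and IL15RA were higher in all GB libraries than in any other, IL11 was lower in all of them, and IL7 was already higher in GA than in CON.

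Differences between groups were taken from limma on log2(FPKM + 0.5), with Benjamini-Hochberg adjustment over all tested genes. A gene was called when |log2FC| exceeded 1 with an adjusted p under 0.05, and the verbs rose and fell are kept for genes with an adjusted p under 0.05. In GB vs. CON, 3 of the 10 genes were called, all higher (IL6, IL15RA and IL7), where 4.01% of all tested genes were called, 2.94% higher and 1.07% lower. Without the fold threshold 5 of the 10 rose and 1 fell, against 33.5% of all tested genes, 16.2% higher and 17.3% lower. The libraries did not overlap for 7 members, 5 higher and 2 lower in GB, against 46.1% of all tested genes, 22.2% higher and 23.9% lower. In GB vs. GA, 2 were called, both higher (IL6 and IL15RA), where 3.64% of all tested genes were called, 2.66% higher and 0.978% lower. Without the fold threshold 3 rose and 2 fell, against 29.0% of all tested genes, 9.87% higher and 19.2% lower. The libraries did not overlap for 5 members, 3 higher and 2 lower in GB, against 46.8% of all tested genes, 15.7% higher and 31.0% lower. In GA vs. CON limma called 0 of the 10, where 0.0716% of all tested genes were called, 0.0318% higher and 0.0398% lower. An adjusted p under 0.05 was reached by 0 of the 10, against 0.453% of all tested genes, 0.246% higher and 0.207% lower, while 3 had an unadjusted p under 0.05, against 19.3% of all tested genes. The libraries did not overlap for 3 members, 2 higher and 1 lower in GA, against 24.7% of all tested genes, 18.6% higher and 6.13% lower. Because IL6 and IL15 passed the filter only through GB, they were bound to be higher there, and the counts and medians that include them are descriptions. Without IL6 there were 2 calls in GB vs. CON and 1 against GA. The median log2FC of the 10 genes was 0.87 for GB against CON, 0.52 for GB against GA and 0.12 for GA against CON, beside −0.016, −0.075 and 0.061 over all tested genes. The GB libraries enter both comparisons with GB, and the GA libraries both comparisons with GA.

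**Figure D2:**
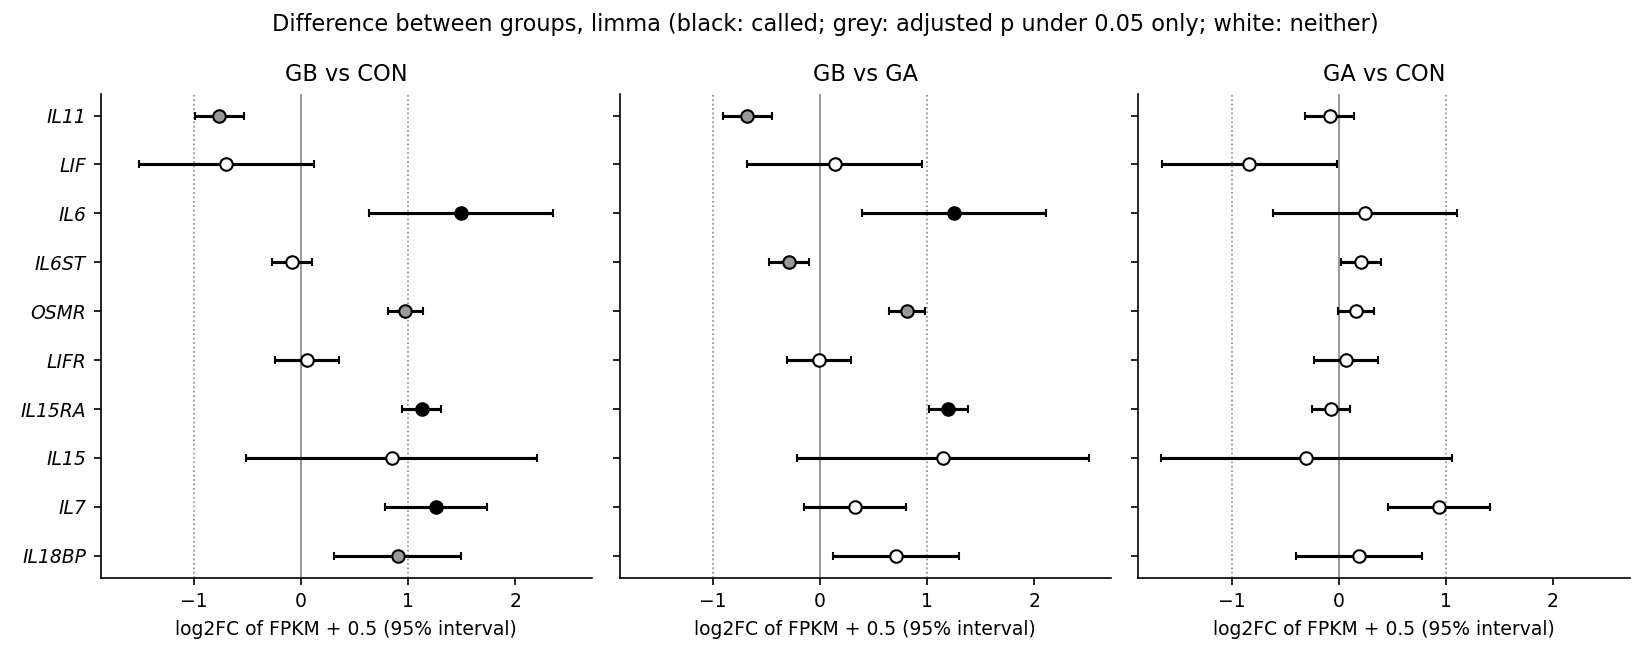
The log2FC on the log2(FPKM + 0.5) scale (horizontal axis) of each member in GB vs. CON, GB vs. GA and GA vs. CON, with 95% intervals from limma and dotted lines at a log2FC of 1 and −1. Black points were called, grey points had only an adjusted p under 0.05 and white points neither. Intervals were narrow for IL15RA, OSMR, IL6ST and IL11 and widest for IL15, LIF and IL6.

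Among the ligands of the gp130 family, IL11 was by far the most abundant and fell in GB. It was at 495, 401 and 547 FPKM in CON, at 435, 427 and 490 in GA, and at 277, 287 and 278 in GB. The 3 GB libraries lay close together and below all others, and CON and GA overlapped. The log2FC was −0.76 (SE 0.10, adjusted p = 0.000463, limma) in GB vs. CON and −0.68 (SE 0.10, adjusted p = 0.00107) in GB vs. GA, which is short of the fold threshold in both. With the GC content of the reads of each library as a covariate, IL11 was called in GB vs. CON with a log2FC of −1.19 (adjusted p = 0.000316, limma). This covariate differed mainly between CON and both treated groups. Calls gained or lost with it in GB vs. CON, here and for the genes below, therefore do not measure a GC bias. Despite its fall IL11 remained at 281 ± 5.79 FPKM (SD, n = 3) in GB, above 95.2% of the genes. In GA vs. CON the log2FC was −0.085 with a 95% interval of −0.31 to 0.14, so a change of the size seen with GB lay outside it.

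LIF was at 3.72, 4.41 and 4.34 FPKM in CON, at 1.74, 1.65 and 3.18 in GA, and at 2.09, 4.71 and 1.25 in GB. All 3 GA libraries were lower than every CON library, while GB spread across the whole range, with GB2 the highest of the 9 libraries. LIF did not pass in any comparison. Its log2FC was −0.83 in GA vs. CON (95% interval −1.65 to −0.017, adjusted p = 0.250, limma) and −0.70 in GB vs. CON (−1.51 to 0.12, adjusted p = 0.171). The GB value depended on the library GB2. Without it the log2FC to CON was −1.13 and LIF was called (adjusted p = 0.0164, limma), and without GB3 it was −0.34.

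IL6 was low in every library. It was listed at 0.260, 0.530 and 0 FPKM in CON, at 0.770, 0 and 0.520 in GA, and at 1.47, 1.45 and 1.79 in GB. The GB libraries were above all others, and both CON and GA held a library at 0. IL6 was called in GB vs. CON with a log2FC of 1.50 (SE 0.38, adjusted p = 0.0148, limma) and in GB vs. GA with 1.25 (SE 0.38, adjusted p = 0.0349). With no filter on low values the adjusted p was 0.0186 and 0.0423 (limma). The call against CON held without each single library (log2FC 1.22 to 1.74) and was lost with a pseudocount of 0.1 (adjusted p = 0.0532, limma) or with the GC content of the reads as a covariate (adjusted p = 0.130). The call against GA was lost without GA2, where the log2FC was 0.86 (adjusted p = 0.0932, limma), and without GA3 (adjusted p = 0.0598), GB1 (0.0775), GB2 (0.0737) or GB3 (0.0973).

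The values of IL6 and IL15 were coarse enough to show their steps. The relative depth of the libraries was estimated from 147 other genes that were above 0 in only 2 to 4 libraries at nearly equal values. After scaling by it, the IL6 values came to 1, 2 and 0 times the smallest value in CON, 3, 0 and 2 times in GA and 6, 5 and 7 times in GB, each within 0.154 of a whole number. IL15 came to 0, 0 and 3 times its own smallest value in CON, 1, 0 and 0 times in GA and 1, 1 and 6 times in GB, within 0.0624. The steps of IL6 summed to 3 in CON, 5 in GA and 18 in GB. Those of IL15 summed to 3, 1 and 8. The table gives no read counts, and how many reads a step stands for is not known.

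**Figure D3:**
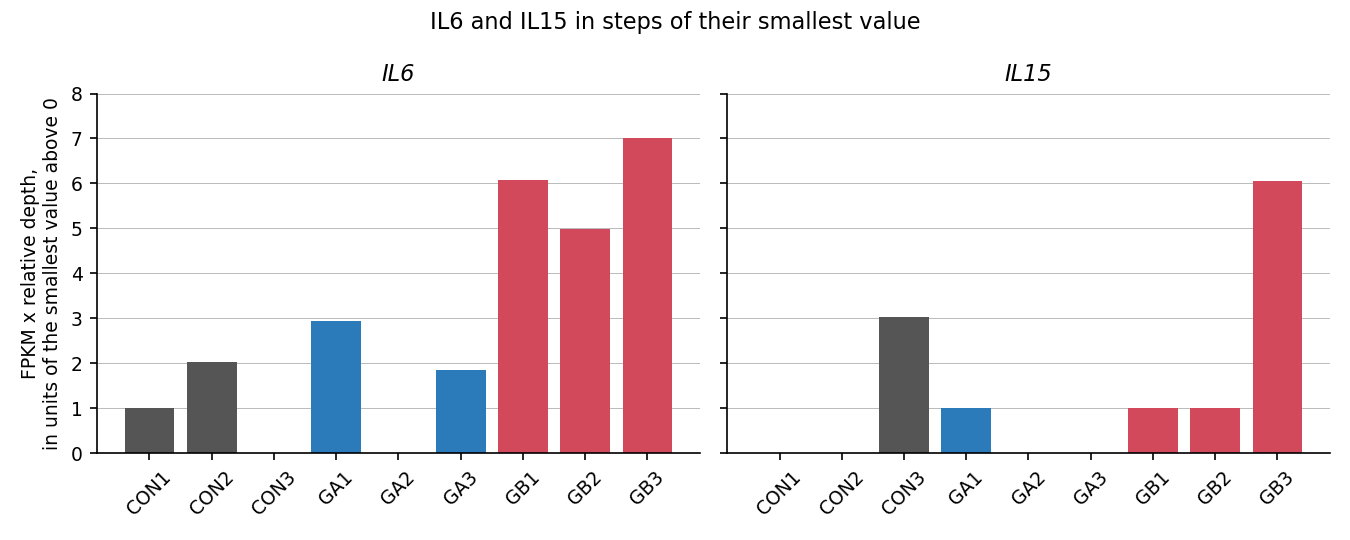
IL6 and IL15 in each of the 9 libraries as FPKM times relative depth, divided by the smallest value above 0 of the gene. The bars end near whole numbers, from 0 to 3 for IL6 in CON and GA and from 5 to 7 in GB, while 1 library, GB3, holds 6 of the 8 steps of IL15 in GB.

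The receptor chains of the gp130 family did not move together. OSMR, the chain for oncostatin M, was at 30.3, 26.5 and 31.8 FPKM in CON, at 31.6, 32.6 and 34.9 in GA, and at 56.6, 58.1 and 60.4 in GB. The GB libraries lay well above the rest, and CON and GA overlapped slightly. OSMR rose in GB vs. CON with a log2FC of 0.97 (SE 0.073, adjusted p = 1.1e-05, limma), just short of the fold threshold. In GB vs. GA it rose with a log2FC of 0.81 (SE 0.073, adjusted p = 4.2e-05, limma). Without CON3 the log2FC of GB vs. CON passed the threshold at 1.03.

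LIFR, the chain for LIF, was at 5.34, 3.84 and 4.78 FPKM in CON, at 4.28, 4.84 and 5.58 in GA, and at 5.01, 4.73 and 4.76 in GB. Every group overlapped the others. The 95% interval of its log2FC was −0.24 to 0.36 for GB against CON and −0.31 to 0.29 for GB against GA, both clear of the difference measured for OSMR. LIFR and OSMR stand next to each other among the protein-coding genes of the RefSeq annotation of assembly ARS-UCD2.0, which is a different build from that of the table. On the FPKM scale OSMR exceeded LIFR 5.68 to 6.89 times within the CON libraries, 6.25 to 7.39 times within those of GA and 11.3 to 12.7 times within those of GB.

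IL6ST, the shared chain, moved little. It was at 45.9, 46.1 and 46.9 FPKM in CON, at 49.9, 49.3 and 62.1 in GA, and at 42.6, 44.2 and 44.5 in GB. GA lay above CON and GB below both, with GA3 standing above the other GA libraries. IL6ST fell in GB vs. GA with a log2FC of −0.29 (SE 0.082, adjusted p = 0.0283, limma), while GB vs. CON gave −0.081 (adjusted p = 0.487) and GA vs. CON gave 0.21 (adjusted p = 0.222). Without GA3 the log2FC of GB vs. GA was −0.18, and without GB1, GB2 or GB3 it did not pass (adjusted p = 0.0849, 0.0638 and 0.0591, limma). It also did not pass with median-of-ratios factors (−0.21, adjusted p = 0.0611) or in a fit of only GA and GB (adjusted p = 0.0522). The ratio of IL6ST to OSMR in FPKM lay between 1.47 and 1.74 in the CON libraries, between 1.52 and 1.78 in those of GA, and between 0.737 and 0.761 in those of GB, where the shared chain was no longer the more abundant of the pair.

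In the IL15 system the receptor rose and the ligand did not pass. IL15RA was at 68.5, 61.7 and 77.0 FPKM in CON, at 60.9, 66.0 and 69.7 in GA, and at 146.9, 152 and 154 in GB. CON and GA overlapped, and the lowest GB library was 146.9 against a highest of 77.0 elsewhere. IL15RA was called in GB vs. CON with a log2FC of 1.13 (SE 0.080, adjusted p = 6.7e-06, limma) and in GB vs. GA with 1.2 (SE 0.080, adjusted p = 4.6e-06). The interval for GA vs. CON was −0.25 to 0.11. With the GC content of the reads of each library as a covariate the log2FC of GB vs. CON was 0.82 (adjusted p = 0.00157, limma), under the fold threshold. Group means rose 2.19-fold over CON and 2.30-fold over GA, and IL15RA moved from above 83.5% of the genes in CON to above 91.3% in GB.

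IL15 itself was listed at 0, 0 and 1.2 FPKM in CON, at 0.410, 0 and 0 in GA, and at 0.380, 0.460 and 2.43 in GB. CON held a value higher than 2 of the GB libraries, and GB3 alone was well above the rest. The log2FC was 0.85 in GB vs. CON (95% interval −0.51 to 2.21, adjusted p = 0.313, limma) and 1.15 in GB vs. GA (−0.21 to 2.51, adjusted p = 0.191). These intervals reach from below 0 to over 2, so neither a rise nor its absence was shown for IL15. IL2RB, through which presented IL15 acts, had no entry under this symbol in the expression table and could not be analysed. IL2RA, which stands beside IL15RA in the same RefSeq gene order, was under the testing limit at 0.153 ± 0.155 FPKM in CON and 0.257 ± 0.0757 in GB (SD, n = 3).

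IL7 was called against CON and not against GA. It was at 4.34, 5.10 and 7.66 FPKM in CON, at 11.2, 10.2 and 11.9 in GA, and at 13.1, 11.3 and 18.4 in GB. CON lay below both treated groups, and GA and GB overlapped. IL7 was called in GB vs. CON with a log2FC of 1.26 (SE 0.21, adjusted p = 0.00175, limma). In GA vs. CON its log2FC was 0.94 (SE 0.21, 95% interval 0.46 to 1.41, adjusted p = 0.0845, limma), which did not pass after adjustment over all genes. In GB vs. GA it was 0.33 (−0.15 to 0.80, adjusted p = 0.284). Without CON3, the highest CON library, IL7 was called in GA vs. CON with a log2FC of 1.15 (adjusted p = 0.0475, limma), and 8 other single libraries left out gave no call there. With the same GC covariate the call in GB vs. CON was lost (adjusted p = 0.208).

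IL18BP was at 1.42, 2.21 and 1.24 FPKM in CON, at 2.74, 1.95 and 1.19 in GA, and at 3.73, 2.72 and 3.84 in GB. The GB libraries were above CON, and GA overlapped both. It rose in GB vs. CON with a log2FC of 0.90 (SE 0.26, adjusted p = 0.0261, limma), and GB vs. GA gave 0.71 (SE 0.26, adjusted p = 0.0699). Leaving out CON2 or GB2 brought the log2FC of GB vs. CON to 1.09 and 1.04. Leaving out CON1, CON3, GB1 or GB3 took its adjusted p to 0.0717, 0.0804, 0.0763 and 0.0802 (limma). IL18BP was called in GB vs. CON with the GC covariate, at a log2FC of 1.77 (adjusted p = 0.0277, limma), and with a pseudocount of 0.1, at 1.06 (adjusted p = 0.0292).

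IL18, the cytokine that IL18BP binds, was much higher than its inhibitor, at 26.8 ± 3.25 FPKM in CON, 36.6 ± 4.26 in GA and 51.6 ± 2.18 in GB (SD, n = 3). The libraries of the 3 groups did not overlap. IL18 rose in GB vs. CON with a log2FC of 0.94 (SE 0.10, adjusted p = 0.000141, limma) and in GB vs. GA with 0.49 (SE 0.10, adjusted p = 0.00676). In GA vs. CON it gave 0.45 (adjusted p = 0.0877). The receptor chain IL18R1 was abundant, at 124 ± 9.39 FPKM in CON and 148 ± 6.68 in GB, and rose in GB by a log2FC of 0.25 over CON and 0.21 over GA. Its partner chain IL18RAP was at 3.79 ± 0.600 and 4.86 ± 0.511 FPKM in the same groups and did not pass. Of the 7 tested genes of the IL18 and IL1 systems other than IL18BP, 2 rose and 2 fell in GB vs. CON. Of all tested genes 16.2% rose and 17.3% fell there. Those that fell were IL1R1 (log2FC −0.32, adjusted p = 0.00302, limma) and IL1RL1 (−0.56, adjusted p = 0.000185). Both also fell in GB vs. GA, by −0.43 and −0.47.

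The wider cytokine systems were described with 48 further genes of the gp130, common gamma chain, IL18 and IL1 systems, of which 39 were in the table and 30 were tested. In GB vs. CON limma called 0 of the 30, and 5 rose and 8 fell without the fold threshold, with 17 at an unadjusted p under 0.05, where 33.5% of all tested genes had an adjusted and 43.8% an unadjusted p under 0.05. In GB vs. GA it also called 0, and 4 rose and 9 fell, with 14 at an unadjusted p under 0.05, where the shares of all tested genes were 29.0% and 40.0%. In GA vs. CON it called 0, 0 had an adjusted p under 0.05 and 2 had an unadjusted p under 0.05, where the shares of all tested genes were 0.453% and 19.3%. The median log2FC of the 30 genes was −0.029 and −0.016 for GB against CON and against GA, and 0.035 for GA against CON.

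**Figure D4:**
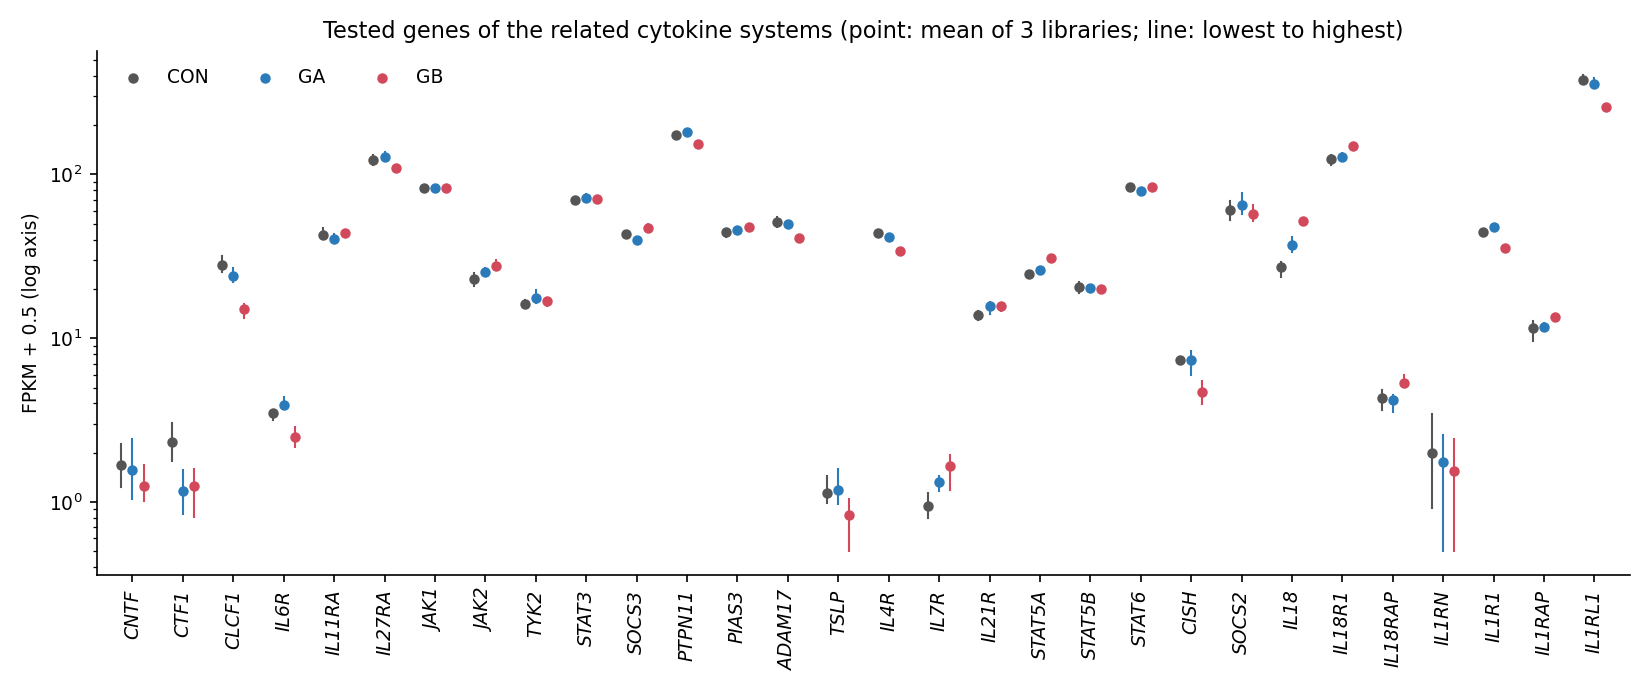
FPKM + 0.5 (vertical log axis) of the 30 tested genes of the related cytokine systems, with a point for the mean of the 3 libraries of CON, GA and GB and a line from the lowest to the highest library. CLCF1 and IL1RL1 were lower and IL18 was higher in GB, while JAK1 and STAT3 lay at the same height in all groups.

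Among the other gp130 ligands 1 of 3 tested genes fell in GB vs. CON, where 17.3% of all tested genes fell. CLCF1, a ligand that acts through CNTFR and LIFR, was at 27.4 ± 3.28 FPKM in CON, 23.6 ± 2.50 in GA and 14.6 ± 1.60 in GB (SD, n = 3). It fell by a log2FC of −0.89 (SE 0.11, adjusted p = 0.000372, limma) in GB vs. CON and by −0.67 (adjusted p = 0.00214) in GB vs. GA. OSM, the ligand of OSMR that stands beside LIF in the RefSeq order, was not analysed here.

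Of the ligand-specific receptor chains, IL6R was low and fell in GB. It was at 3.11, 2.68 and 3.16 FPKM in CON, at 3.19, 3.22 and 3.90 in GA, and at 1.68, 1.98 and 2.37 in GB. All GB libraries were below the others. The log2FC was −0.48 (SE 0.14, adjusted p = 0.0280, limma) in GB vs. CON and −0.65 (SE 0.14, adjusted p = 0.00786) in GB vs. GA. IL11RA, the receptor of IL11, was at 42.3 ± 3.75 FPKM in CON, 39.9 ± 2.70 in GA and 43.6 ± 1.84 in GB (SD, n = 3). Its groups overlapped. The ratio of IL11 to IL11RA in FPKM lay between 9.87 and 12.5 in the CON libraries, between 11.2 and 11.4 in those of GA and between 6.17 and 6.68 in those of GB.

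Of 8 genes of signal transduction and feedback below gp130, 1 rose and 2 fell in GB vs. CON. Of all tested genes 16.2% rose and 17.3% fell there. JAK1 was at 82.0 ± 1.86 FPKM in CON and 81.7 ± 2.69 in GB, and STAT3 at 69.0 ± 1.82 and 70.4 ± 3.45 (SD, n = 3). Their log2FC in GB vs. CON were −0.0047 (adjusted p = 0.947, limma) and 0.030 (adjusted p = 0.716). The gene that rose was JAK2, another kinase of these receptors, from 22.5 ± 2.17 in CON to 27.0 ± 2.18 FPKM in GB (SD, n = 3), by a log2FC of 0.26 (adjusted p = 0.0436, limma). JAK2 did not pass in GB vs. GA (0.11, adjusted p = 0.385, limma) or in GA vs. CON (0.15, adjusted p = 0.355). The kinase TYK2 was at 15.6 ± 0.906 and 16.3 ± 0.886 FPKM and did not pass. SOCS3, the feedback inhibitor of gp130 signalling, rose in GB vs. GA by a log2FC of 0.24 (SE 0.055, adjusted p = 0.00999, limma) and had 0.13 (adjusted p = 0.0985) in GB vs. CON. PTPN11, a phosphatase bound by gp130, and ADAM17, a protease that sheds IL6R, both fell in GB vs. CON, by −0.20 and −0.33.

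Of 15 genes known to be induced through gp130 and STAT3, 12 were in the table and 11 were tested, and limma called 0 in each comparison. In GB vs. CON 3 rose and 3 fell, where 16.2% of all tested genes rose and 17.3% fell. In GB vs. GA 4 rose and 3 fell, where 9.87% of all tested genes rose and 19.2% fell. In GA vs. CON 0 rose and 1 fell, where 0.246% of all tested genes rose and 0.207% fell. The gene that fell in GA vs. CON, named here after its values were seen, was CEBPB, a transcription factor of the acute-phase response, with a log2FC of −0.88 (SE 0.14, adjusted p = 0.0392, limma). CEBPB also fell in GB vs. CON (−0.43, adjusted p = 0.0424, limma) and rose in GB vs. GA (0.45, adjusted p = 0.0393). The list thus showed no common direction, with a median log2FC of −0.21 and 0.076 for GB against CON and against GA, and 0.057 for GA against CON.

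In the family of IL7 and IL15 the receptor chains ranged widely in level. IL4R was at 43.4 ± 1.96 FPKM and IL21R at 13.4 ± 0.907 in CON (SD, n = 3), while IL2RG and IL7R were low. IL2RG was under the testing limit, with 0.430 ± 0.157 FPKM in CON, 0.517 ± 0.127 after the hormones and 0.263 ± 0.0929 in GB (SD, n = 3). IL7R was at 0.420, 0.300 and 0.630 FPKM in CON, at 0.950, 0.670 and 0.870 in GA, and at 0.690, 1.44 and 1.34 in GB. Its CON libraries were below all others, as for IL7. IL7R rose in GB vs. CON with a log2FC of 0.78 (SE 0.25, adjusted p = 0.0355, limma), and GA vs. CON gave 0.49 (adjusted p = 0.300). Its GB vs. GA gave 0.29 (adjusted p = 0.417, limma). JAK3, the kinase of IL2RG, was at 0.173 ± 0.0513 FPKM in CON and 0.183 ± 0.0252 in GB. Of 5 tested genes of signal transduction and feedback in this family, 1 rose and 1 fell in GB vs. CON. Of all tested genes 16.2% rose and 17.3% fell there. The gene that rose was STAT5A, a transcription factor, from 24.1 ± 1.16 in CON to 30.2 ± 0.670 FPKM in GB, by a log2FC of 0.32 (adjusted p = 0.00204, limma). STAT5B, STAT6 and SOCS2 did not pass in any comparison, with log2FC of −0.054, 0.0050 and −0.079 in GB vs. CON. IL4R fell by −0.36 (adjusted p = 0.000517) and CISH, a feedback inhibitor of STAT5, by −0.66 (adjusted p = 0.0105) in the same comparison.

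For each member the genes closest to it in pattern were found among 9970 tested genes with a mean of at least 5 FPKM, by the root mean square difference of the centred log2(FPKM + 0.5) values over the 9 libraries. OSMR had the closest match, with BAG1 at a difference of 0.028, USP25 at 0.047 and AZI2 at 0.056, beside a spread of OSMR itself of 0.46 (SD). IL15RA was closest to CHMP5 (0.084), VCPIP1 (0.096) and JADE2 (0.10), and IL11 to EGR3 (0.067), NFIX (0.085) and MBLAC1 (0.094). IL7 was closest to DNAJB4 (0.23), PPM1N (0.24) and KIAA1551 (0.25), which had log2FC of 0.56, 0.79 and 0.84 in GA vs. CON. The nearest genes were RGS16 (0.34), SNAPC5 (0.38) and CCNJ (0.38) for LIF, and C3H1orf109 (0.32), GDAP2 (0.38) and GYPC (0.39) for IL6. For IL18BP they were GYPC (0.20), PDGFRL (0.22) and NCR3LG1 (0.24), and for IL15 they were LAYN (0.61), MTFP1 (0.61) and USF3 (0.62), where the spread of IL15 itself was 0.91. LIFR and IL6ST varied little. Their closest matches were TMOD3 (0.056), SCAF4 (0.063) and SPNS1 (0.065) for LIFR, and ABHD14B (0.058), FBXO30 (0.060) and OSBPL11 (0.063) for IL6ST.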

How the data were processed

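RNA of 9 BEND cultures was sequenced as poly-A selected, directional libraries. Per the labels and methods, the authors used fastp 0.21.0, Bowtie2 2.33, HISAT2 2.2.1 (genome ARS-UCD1.2) and RSEM 1.3.3. The deposited table holds FPKM by gene for each library, computed by the authors and written to 2 decimals, and gives neither read counts nor depth. RSEM adds the values of isoforms, so a shift between isoforms of different length can move a gene's FPKM. Neither the annotation release nor the strand setting is stated in the sources used here.

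Values were used as log2(FPKM + 0.5) in R 4.3.3 with limma 3.58.1, with 1 mean per group, a variance trend and all 9 libraries. Testing was limited to genes whose mean over the libraries reached 0.5 FPKM, and intervals are at 95%. Figures were drawn with matplotlib 3.10.9 in Python 3.11.15. An exact permutation test of 3 against 3 libraries cannot give a p under 0.1. The fitting procedure was tested on simulated data. The members and gene lists were chosen with earlier results of these data known. The genes named are the members, their direct partners, list genes called in a comparison and the 3 genes closest in pattern to each member. List genes named without being called were chosen after their values were seen. Alternatives were other pseudocounts (1 and 0.1), filters, scalings, no variance trend, fits of 2 groups, a replicate block, a GC covariate from the study's read statistics, and each library left out with the tested genes kept. No sequences or coordinates of the table's build were used here. A gene of the lists is not reported here and was left out of their counts.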

Additional observations from a re-analysis of the deposited data

How the results depend on the processing

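The number of members called in GB vs. GA fell from 2 to 1 with a pseudocount of 1 or 0.1, with a filter at a mean FPKM of 1 and with the replicate block, and ranged from 1 to 2 over single libraries left out. Members called in GB vs. CON were 2 with the filter at a mean FPKM of 1 and 2 with the GC covariate, under which IL6, IL15RA and IL7 lost their calls and IL11 and IL18BP gained one. They ranged from 3 to 5 over single libraries left out, in GA vs. CON from 0 to 1, and members with an adjusted p under 0.05 ranged from 3 to 6 in GB vs. GA and from 0 to 1 in GA vs. CON. Of the related genes, 1 was called in GB vs. CON with a pseudocount of 0.1 (IL7R), 1 with the GC covariate (CLCF1) and 0 to 1 over single libraries left out, and the number with an adjusted p under 0.05 fell to 7 with the GC covariate. The replicate block gave 1 member (IL7) with an adjusted p under 0.05 in GA vs. CON and ended the calls of IL6 in GB vs. GA. Same-numbered libraries of different groups had correlations of their deviations of −0.031 to 0.077, 0 of 9 pairs over 0.1, and in 8 of 18 cases a library correlated best with its own number, so the numbers were not treated as pairs. IL15RA stayed called in both comparisons with GB without each single library and under the other alternatives except the GC covariate in GB vs. CON (log2FC 0.82). With that covariate its log2FC in GB vs. GA was 1.18. For each member the covariate moved both comparisons with CON far more than GB vs. GA. The log2FC of IL11 went from −0.76 to −1.19 in GB vs. CON and from −0.085 to −0.48 in GA vs. CON. In GB vs. GA it went from −0.68 to −0.70. The mean GC content of the reads in CON thus stood apart from that in GA and GB. An effect of GC content and an effect of treatment cannot be told apart in the comparisons with CON. The calls lost and gained there do not measure a GC bias.

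The differences whose sign turned were not called, and the largest of them was that of IL15 in GB vs. CON (0.85). LIFR in GB vs. GA became 0.014 (equal library sums), 0.057 (median-of-ratios factors), 0.049 (quantile normalization), and −0.096 to 0.078 over single libraries left out. With the GC covariate, GB vs. CON became −0.35 for LIFR and −0.41 for IL15, and GA vs. CON −0.32 for LIFR and −0.12 for OSMR. Over single libraries left out, the ranges were −0.059 to 0.16 for LIFR in GB vs. CON, −0.29 to 0.49 for LIF in GB vs. GA, and in GA vs. CON −0.047 to 0.17 for LIFR, −0.035 to 0.64 for IL6, −0.21 to 0.014 for IL11, −0.59 to 0.29 for IL15, −0.15 to 0.0092 for IL15RA and −0.035 to 0.43 for IL18BP. The cause was not tested. IL6 and IL15 had no value under a filter at a mean FPKM of 1. Sequencing depth is not in the table. The study gives clean reads by group, but the reads counted for IL6 and IL15, the lowest members, are not known. The limit that depth sets on these 2 genes was not worked out here.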
